A study of Mus musculus with 7 samples.

Results

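Pseudogenes are copies of genes that as a rule no longer encode a working protein. A processed pseudogene arises when a messenger RNA is copied back into DNA and inserted elsewhere in the genome, so it has no introns and can be almost identical to the coding sequence of its parent gene. Highly transcribed housekeeping genes, such as those of ribosomal proteins, have many such copies, and a short read can then match the parent and its copies equally well. Examined here were 7 pseudogenes selected on their change between the genotypes in these same samples, together with 3 of their parent genes, 10 named rows in all of the 55401 genes of the count table. The pseudogenes were Gm11868, Tma7-ps, Morf4l1-ps1, Gm8210, Gm13841, Gm15454 and Pisd-ps1, and the parents among the 10 were Tma7, Morf4l1 and Pisd. All 10 were among the 16429 genes tested. By sequence, 2 further parents were found, Cyb5r4 for Gm11868 and Rpl29 for Gm8210, Gm13841 and Gm15454, and both are described beside their copies.

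RNA-Seq was performed on the right knees of male C57BL/6J mice that were 10 weeks old when the medial meniscus was surgically destabilized (DMM, a model of osteoarthritis) and were killed 2 weeks later. By the labels, 4 samples were WT and 3 were Trpc1-/-, each a pool of 2 to 3 mice, and the tissue named in the study's methods was cartilage with subchondral bone. The methods state the group sizes the other way round, and groups here follow the labels. The Trpc1-/- mice carry the Trpc1tm1Lbi allele, which lacks an exon of this cation channel gene in every cell, and all 7 samples had undergone DMM. Values are estimated counts per gene, given below as CPM, the count scaled to a common library size by the TMM method, and a log2 fold change is that of Trpc1-/- over WT.

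Library totals ranged from 52142451 counts in WT replicate 1, the shallowest, to 118254070 counts, and a floor of 3 counts was worth 0.0244 to 0.0631 CPM. Trpc1 was at 4.82, 4.54, 4.76 and 4.32 CPM in WT replicates 1 to 4 and at 3.34, 3.78 and 3.03 CPM in Trpc1-/- replicates 1 to 3, lower in all Trpc1-/- samples, although the count covers the whole gene and the removed exon was not measured on its own. Summed chondrocyte markers lay between 5749 and 6016 CPM in WT and between 3221 and 6114 CPM in Trpc1-/- samples, with 0 of 12 markers higher in the latter (median log2 fold change −0.42) and none at 0. Summed erythroid markers were higher in Trpc1-/- samples, at 42860 to 58260 CPM against 20290 to 37050 CPM in WT, with 19 of 19 tested markers higher and none at 0. Their part in the values below was not tested.

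The sequences show how little separates most of these copies from their parents. Tma7-ps (chr1:171711088-171711282, + strand, GRCm38) is a copy of the coding sequence of Tma7, which encodes a small protein associated with the translation machinery, and it differed from it at 2 of 195 bases, A123G and C141T (the parent's base, the position counted from 1 at the A of the start codon, and the copy's base). Both sequences are shown whole, from GENCODE M21 transcripts, with the differing bases in capitals.
Tma7: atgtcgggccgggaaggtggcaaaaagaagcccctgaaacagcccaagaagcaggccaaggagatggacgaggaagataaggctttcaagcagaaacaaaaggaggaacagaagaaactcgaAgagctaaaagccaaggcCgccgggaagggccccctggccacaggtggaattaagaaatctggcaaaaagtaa
Tma7-ps: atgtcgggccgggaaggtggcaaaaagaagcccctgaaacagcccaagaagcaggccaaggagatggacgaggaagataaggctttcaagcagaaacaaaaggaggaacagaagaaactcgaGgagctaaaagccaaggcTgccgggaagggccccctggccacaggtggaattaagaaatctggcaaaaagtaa

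Gm8210 (chr1:43189156-43189638, + strand), Gm13841 (chr5:115801677-115802159, − strand) and Gm15454 (chr1:134518081-134518563, + strand) are copies of Rpl29, which encodes a protein of the large subunit of the cytosolic ribosome. Gm8210 and Gm13841 were identical to each other in all 483 bases and differed from Rpl29 at 3 of them, C72A, C300T and T423C. Gm15454 differed from it at 4, of which C300T and T423C were shared with the other two and G144A and G457A were not. The stretch from coding position 281 to 480 is shown because it holds both shared differences. Capitals mark the bases at which a copy differs from Rpl29 and, in Rpl29, the bases at which Gm15454 differs from it. The stretch of Gm8210 lies at chr1:43189436-43189635 and that of Gm15454 at chr1:134518361-134518560.
Rpl29: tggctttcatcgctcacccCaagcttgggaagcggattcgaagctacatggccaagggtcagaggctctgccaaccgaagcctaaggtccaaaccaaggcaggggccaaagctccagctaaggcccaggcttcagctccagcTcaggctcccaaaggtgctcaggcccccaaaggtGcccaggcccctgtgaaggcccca
Gm8210: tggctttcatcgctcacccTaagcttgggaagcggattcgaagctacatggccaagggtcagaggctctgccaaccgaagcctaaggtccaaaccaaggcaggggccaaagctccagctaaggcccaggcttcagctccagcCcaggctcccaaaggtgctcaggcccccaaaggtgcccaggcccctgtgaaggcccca
Gm15454: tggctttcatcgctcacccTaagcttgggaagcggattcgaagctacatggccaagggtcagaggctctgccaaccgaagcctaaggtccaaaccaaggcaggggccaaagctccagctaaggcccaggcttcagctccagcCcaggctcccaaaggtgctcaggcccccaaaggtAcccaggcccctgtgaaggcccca

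Morf4l1-ps1 (chr16:24529394-24530362, + strand) is a copy of Morf4l1, which encodes MRG15, a chromodomain protein found in histone acetyltransferase and deacetylase complexes. It differed from the parent at 2 of 969 bases, C519T and C957T, and lies in an intron of Lpp on the same strand. The bases around the first difference, at coding positions 480 to 560 and in the copy at chr16:24529873-24529953, are shown.
Morf4l1: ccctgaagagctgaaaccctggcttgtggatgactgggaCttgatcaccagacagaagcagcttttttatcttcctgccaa
Morf4l1-ps1: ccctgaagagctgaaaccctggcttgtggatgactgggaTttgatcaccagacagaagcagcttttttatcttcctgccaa

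Gm11868 (chr4:18844202-18845679, − strand) matched most of the coding sequence of Cyb5r4, a cytochrome b5 reductase of the endoplasmic reticulum, with 97.98% identity over 1485 aligned columns, 23 mismatches and 7 gap columns. It lies in an intron of the noncoding gene Gm11867 on the opposite strand, which had 0 counts in all 7 samples. A stretch of 100 bases (chr4:18845080-18845179, Cyb5r4 coding positions 610 to 709) is shown as an example, with its 3 differences in capitals.
Cyb5r4: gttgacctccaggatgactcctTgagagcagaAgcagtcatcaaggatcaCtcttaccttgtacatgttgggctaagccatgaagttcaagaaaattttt
Gm11868: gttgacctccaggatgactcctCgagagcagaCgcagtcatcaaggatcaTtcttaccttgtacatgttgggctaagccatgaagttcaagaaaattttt

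Pisd-ps1 (chr11:3125904-3131004, + strand) was the least like its parent. Its best match was Pisd, the phosphatidylserine decarboxylase of the inner mitochondrial membrane, with 94.149% identity and 53 mismatches. GENCODE M21 annotates it as a transcribed unprocessed pseudogene, a copy made by duplication of DNA, so the name processed pseudogene holds for 6 of the 7. Of all 75-base stretches of each pseudogene (the read length in the methods), the share found letter for letter in a transcript of the parent was 90.2% for Morf4l1-ps1, 49.1% for Gm8210 and Gm13841, 48.4% for Gm15454, 39.7% for Tma7-ps, 24.4% for Gm11868 and 4.42% for Pisd-ps1. No stretch of Gm8210 or Gm13841 was found in that gene alone, since each held all stretches of the other, so a count on either of these loci cannot be told apart from the other by sequence. Of the stretches of Gm11868, 75.6% were found in no other annotated transcript.

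The 6 processed pseudogenes were higher in Trpc1-/- samples without overlap between the groups, and Pisd-ps1 was lower. Over all genes tested, 7.15% were higher and 6.42% lower in this way, and 1.79% were called by DESeq2, as were all 7 pseudogenes. The pseudogenes were chosen by this very contrast, so these counts describe the choice and their changes carry no test. With a sample left out, DESeq2 called 5 to 7 of the 7. Tma7-ps was not called in 5 of these 7 fits (without WT replicates 2, 3 or 4 or Trpc1-/- replicates 1 or 3), nor among the samples with the lower mouse numbers described below, and Gm8210 was not called without Trpc1-/- replicate 3.

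In order of replicate number, as throughout, Gm11868 had 40, 214, 250 and 209 counts in WT against 1710, 1321 and 1418 in Trpc1-/- samples, or 0.841, 2.02, 2.03 and 2.65 CPM against 13.9, 14.2 and 14.5 CPM. The lowest Trpc1-/- sample was 5.25 times the highest WT sample, and the Trpc1-/- samples lay close together. Its log2 fold change was 2.89 (SE 0.31).

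Tma7-ps was the scarcest, with 63, 38, 30 and 21 counts in WT and 343, 151 and 283 counts in Trpc1-/- samples, or 1.32, 0.359, 0.244 and 0.267 CPM against 2.79, 1.62 and 2.89 CPM. WT replicate 1 stood 4.97 times above the median of the other WT samples and near the lowest Trpc1-/- sample. The log2 fold change was 2.23 (SE 0.60), and 3.07 (SE 0.29) without that replicate. Morf4l1-ps1 was at 2.00, 2.07, 1.81 and 1.94 CPM in WT and at 3.68, 4.43 and 3.91 CPM in Trpc1-/- samples, with a log2 fold change of 1.04 (SE 0.14). Here WT replicate 1 lay within the range of the other WT samples.

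Gm8210 was at 10.2, 3.89, 2.83 and 2.53 CPM in WT and at 24.8, 16.6 and 25.9 CPM in Trpc1-/- samples. Gm13841 was at 10.6, 4.36, 3.47 and 2.93 CPM in WT and at 26.1, 17.5 and 27.1 CPM in Trpc1-/- samples, in step with its identical twin. Gm15454 was at 1.68, 1.09, 1.12 and 1.09 CPM in WT and at 3.73, 2.98 and 3.94 CPM in Trpc1-/- samples. For all 3 copies of Rpl29, WT replicate 1 was the highest WT sample and Trpc1-/- replicate 2 the lowest Trpc1-/- sample. Their log2 fold changes were 2.24 (SE 0.48), 2.17 (SE 0.43) and 1.52 (SE 0.21). Without WT replicate 1 they were 2.86, 2.71 and 1.68.

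Pisd-ps1 was at 15.7, 14.7, 15.4 and 15.1 CPM in WT and at 10.0, 10.4 and 10.8 CPM in Trpc1-/- samples. The spread within each group was small beside the gap between them, and the log2 fold change was −0.55 (SE 0.07). It was the only one of the 7 that was lower in Trpc1-/- samples.

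By the mouse numbers of the labels, a lower range held WT replicates 1 and 2 and all Trpc1-/- samples, and a higher range held WT replicates 3 and 4 only. Among the lower numbers alone, the log2 fold change was 3.26 for Gm11868, 1.59 for Tma7-ps, 0.98 for Morf4l1-ps1, 1.69 for Gm8210, 1.68 for Gm13841, 1.37 for Gm15454 and −0.54 for Pisd-ps1, each of the same sign as over all samples.

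**Figure D1:**
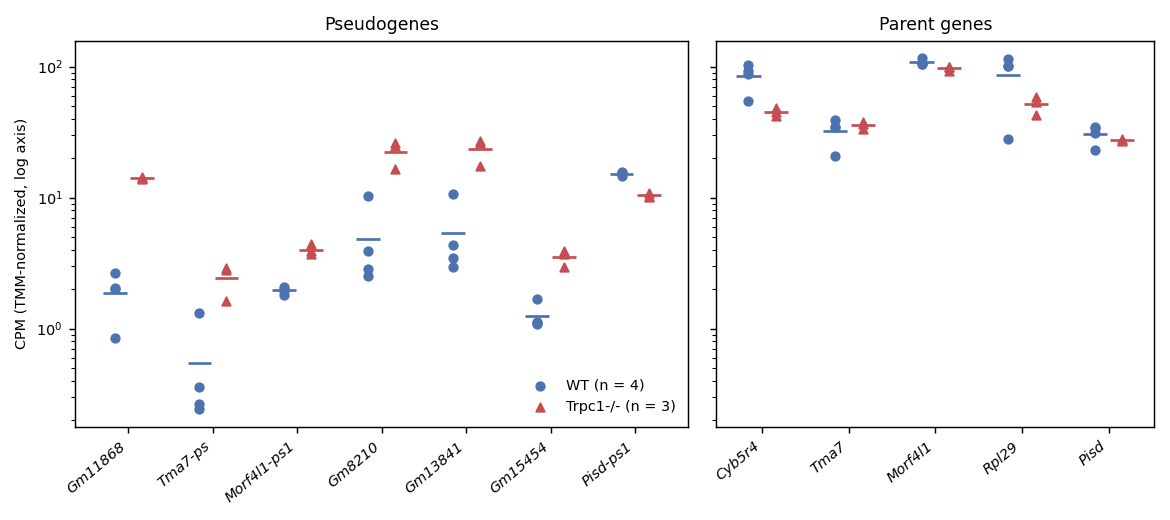
CPM (log axis) of the 7 pseudogenes (left) and the 5 parent genes (right) in each sample, circles for WT (n = 4), triangles for Trpc1-/- (n = 3) and lines for group means. The pseudogenes separate by genotype, and the low WT point of Rpl29 at 28.1 CPM is WT replicate 1.

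The parent genes were examined next, since a short read can match both a copy and its parent, less often for Gm11868 and least for Pisd-ps1. None of the 5 parents passed edgeR's quasi-likelihood test, in which 0.0% of all genes tested were called (0 genes, although 1643 had an unadjusted P under 0.05). DESeq2 called Cyb5r4 and no other parent. Cyb5r4 was at 54.1, 87.3, 92.8 and 102 CPM in WT and at 48.2, 42.0 and 45.2 CPM in Trpc1-/- samples. All 3 Trpc1-/- samples lay below all WT samples, of which replicate 1 was the lowest. The log2 fold change was −0.90 (SE 0.20), and the adjusted P was 0.395 by edgeR and 0.00443 by DESeq2. Without WT replicate 1 the edgeR value was −1.06 and its adjusted P 0.00506, whereas the DESeq2 call was lost without WT replicate 2 (adjusted P = 0.0675) or Trpc1-/- replicate 3 (0.132) and among the samples with the lower mouse numbers (0.121).

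Rpl29 was at 28.1, 101.7, 115 and 101.3 CPM in WT and at 53.5, 58.5 and 42.8 CPM in Trpc1-/- samples. WT replicate 1 was the lowest of all 7 samples, and the other WT samples lay above every Trpc1-/- sample, so the groups overlapped through that library. The log2 fold change was −0.74 (SE 0.42, adjusted P = 0.558 by edgeR). Without WT replicate 1 it was −1.04 and its adjusted P 0.0258, and among the lower mouse numbers it was −0.33. Among the 85 genes of cytosolic ribosomal proteins, Rpl29 had the lowest log2 fold change, followed by Rps3a1 at −0.10. The median of these genes was 0.28 against −0.0088 over all genes tested, and 14.1% of them were higher without overlap, against 7.15% of all genes tested.

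Morf4l1 was at 116, 107, 105 and 104 CPM in WT and at 92.6, 98.8 and 98.5 CPM in Trpc1-/- samples, lower in all Trpc1-/- samples by a small margin (log2 fold change −0.16, SE 0.07, adjusted P = 0.515). Tma7 was at 20.9, 34.7, 39.2 and 34.9 CPM in WT and at 36.7, 33.2 and 37.7 CPM in Trpc1-/- samples. The Trpc1-/- values lay within the WT range, in which replicate 1 was again the lowest (log2 fold change 0.14, SE 0.19, adjusted P = 0.791), and without that replicate the log2 fold change was −0.02. Pisd was at 23.1, 31.1, 33.7 and 34.8 CPM in WT and at 27.5, 27.8 and 27.1 CPM in Trpc1-/- samples, which lay within the WT range as well (log2 fold change −0.16, SE 0.14, adjusted P = 0.669, all by edgeR), and its log2 fold change was 0.01 among the lower mouse numbers. Its copy Pisd-ps1 was thus lower without overlap, while Pisd overlapped through WT replicate 1 alone, the other WT samples lying above every Trpc1-/- sample. Without that replicate the log2 fold change of Pisd was −0.28 (SE 0.06, adjusted P = 0.119) by edgeR, and DESeq2 called it (adjusted P = 0.00874). The difference between copy and parent was not tested.

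Levels of different genes can be compared only per length of exon. In WT, Rpl29 had the highest level, 76.7 ± 34.95 CPM per kb (SD, n = 4), before Tma7 at 23.9 ± 5.85, Cyb5r4 at 12.5 ± 3.10, Morf4l1 at 11.1 ± 0.539 and Pisd at 5.34 ± 0.917. Cyb5r4 and Morf4l1 did not differ beyond their spread over the 4 WT samples. Without WT replicate 1, Cyb5r4 at 13.96 ± 1.11 lay above Morf4l1 at 10.8 ± 0.121 CPM per kb (SD, n = 3). Among the pseudogenes in WT, Gm13841 at 11.03 ± 7.32, Gm8210 at 10.1 ± 7.47 and Pisd-ps1 at 8.66 ± 0.251 CPM per kb did not differ beyond their spread. Without WT replicate 1 they were at 7.42 ± 1.49, 6.38 ± 1.48 and 8.57 ± 0.219 CPM per kb (SD, n = 3), and Pisd-ps1 then lay above Gm8210 beyond their spread. Gm11868 was at 1.28 ± 0.512 CPM per kb. In Trpc1-/- samples, Gm13841 at 48.8 ± 10.97 and Gm8210 at 46.5 ± 10.5 CPM per kb (SD, n = 3) were level with Rpl29 at 45.8 ± 7.15. These levels depend on how reads that match several loci were split, since the 2 copies are identical and share stretches with Rpl29. Gm11868 at 9.61 ± 0.181 lay above Cyb5r4 at 6.70 ± 0.464. Tma7-ps was at 12.5 ± 3.61 CPM per kb and Tma7 at 26.4 ± 1.71. The order of copy and parent also rests on the length used, that of all annotated exons of a gene together. It was 6736 bases for Cyb5r4 against 1478 for Gm11868, and 1126 for Rpl29 against 483 for Gm13841 and Gm8210. By CPM, the Trpc1-/- mean was 45.1 for Cyb5r4 against 14.2 for Gm11868. For Rpl29 it was 51.6, against 23.6 for Gm13841 and 22.4 for Gm8210.

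Each pseudogene was then added to its parent, to see how much of a change remained in the sum. For Rpl29 and its 3 copies, the copies together were 38.1 CPM higher in the mean of the Trpc1-/- samples and Rpl29 was 34.8 CPM lower. Without WT replicate 1 these amounts were 41.8 and 54.2 CPM. The sum was 50.5, 111, 122 and 108 CPM in WT and 108, 95.6 and 99.7 CPM in Trpc1-/- samples, so that WT replicates 2 to 4 lay near or above the Trpc1-/- samples and WT replicate 1 far below all. The log2 fold change of the sum was 0.05 (SE 0.27), and it was −0.17 (SE 0.07) without WT replicate 1. Adding every annotated copy of Rpl29 (123 in the table) gave 0.17 (SE 0.23).

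Gm11868 was 12.3 CPM higher in the mean of the Trpc1-/- samples while Cyb5r4 was lower by 38.9 CPM. Their sum was 54.9, 89.3, 94.8 and 105 CPM in WT and 62.2, 56.2 and 59.6 CPM in Trpc1-/- samples, with a log2 fold change of −0.54 (SE 0.20). The groups overlapped through WT replicate 1, whose sum was the lowest of all, and the other WT sums lay above every Trpc1-/- sum. For Morf4l1 the sum was at −0.13 (SE 0.07) against −0.16 for the parent alone. For Tma7 the copy and the parent were both higher in the group mean, by 1.89 and 3.44 CPM (without WT replicate 1, Tma7 was 0.387 CPM lower), and the sum had a log2 fold change of 0.21 (SE 0.18). For Pisd both were lower, by 4.81 CPM for the copy, and the sum was at −0.28 (SE 0.10), with 38.8, 45.8, 49.2 and 49.9 CPM in WT and 37.5, 38.1 and 37.9 CPM in Trpc1-/- samples.

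**Figure D2:**
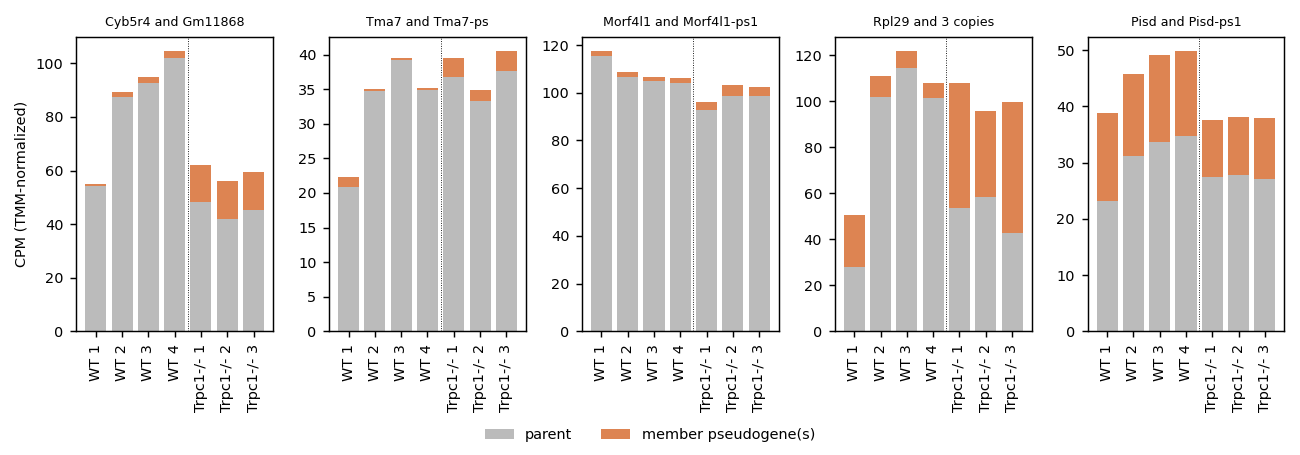
CPM of each parent gene (grey) and of its member pseudogenes (orange, stacked on it) in the 4 WT and 3 Trpc1-/- samples, left and right of the dotted line. For Rpl29 the Trpc1-/- sums of 95.6 to 108 CPM are near those of WT replicates 2 to 4 while the orange part is larger, and for Cyb5r4 the sum is lower in Trpc1-/- samples than in WT replicates 2 to 4.

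The share of the summed counts that lay on the pseudogene removes the level of the pair from the comparison. On Gm11868 lay 1.53%, 2.26%, 2.14% and 2.53% of the counts of the pair in WT and 22.4%, 25.3% and 24.3% in Trpc1-/- samples, a mean of 2.12% ± 0.424 (SD, n = 4) against 24.0% ± 1.45 (SD, n = 3). On Morf4l1-ps1 lay 1.70%, 1.90%, 1.70% and 1.83% in WT and 3.82%, 4.29% and 3.82% in Trpc1-/- samples. In both pairs all WT samples, replicate 1 included, stood together and apart from the Trpc1-/- samples.

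On the 3 copies of Rpl29 lay 44.4%, 8.41%, 6.08% and 6.07% of the counts in WT and 50.5%, 38.8% and 57.1% in Trpc1-/- samples. WT replicate 1 fell inside the Trpc1-/- range, with a 95% Wilson interval of 42.4% to 46.4%. Such an interval treats the estimated counts as separate reads, so it covers counting error only and not how shared reads were split. On Tma7-ps lay 5.95%, 1.02%, 0.618% and 0.759% in WT and 7.07%, 4.66% and 7.12% in Trpc1-/- samples. Here too WT replicate 1 lay among the Trpc1-/- samples (interval 4.68% to 7.55%), while the other WT samples did not. On Pisd-ps1 the shares were 40.4%, 32.0%, 31.4% and 30.3% in WT and 26.7%, 27.2% and 28.6% in Trpc1-/- samples, lower in all of the latter. WT replicate 1 thus sat with the other WT samples for the copies of Cyb5r4 and Morf4l1 and with the Trpc1-/- samples for those of Rpl29 and Tma7. Among the lower mouse numbers alone, the difference in the mean share was 22.1 points for Gm11868, 2.18 for Morf4l1-ps1, 22.4 for the copies of Rpl29 and 2.79 for Tma7-ps, against 21.9, 2.19, 32.6 and 4.20 points over all samples. WT replicate 1 was also the library of the lowest total count. Its summed skeletal muscle markers, at 1029 CPM, were the highest of the 7. These markers were at 346 to 891 CPM in Trpc1-/- samples, all above the 60.3 to 198 CPM of the other WT samples. The part of the library total and of these markers in the shares was not tested.

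**Figure D3:**
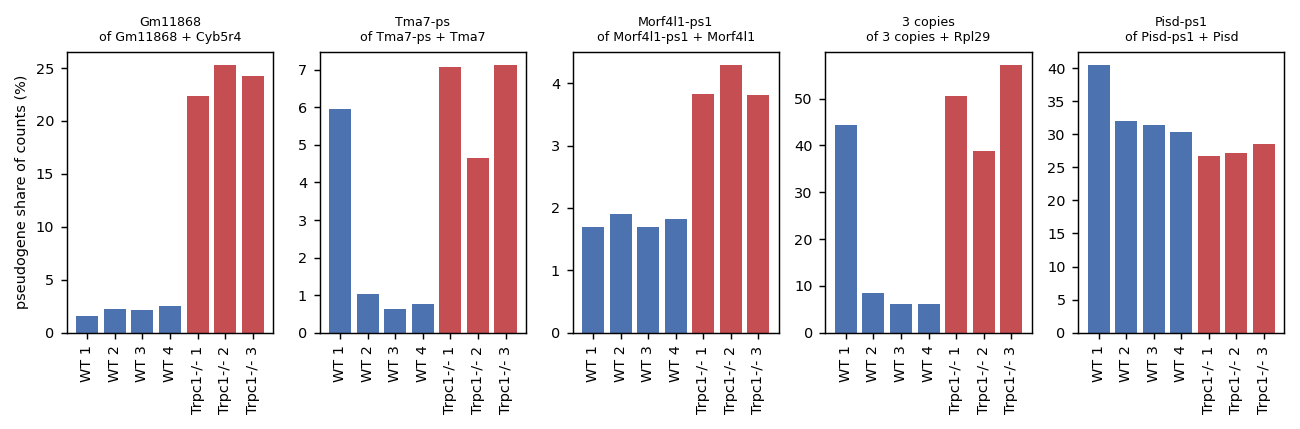
Percentage of the counts of each pseudogene and parent group that lay on the pseudogenes, by sample (blue, WT; red, Trpc1-/-; each axis from 0). The bar of WT replicate 1 is as high as those of the Trpc1-/- samples for Tma7-ps (5.95%) and the 3 copies of Rpl29 (44.4%) and not for Gm11868 (1.53%) or Morf4l1-ps1 (1.70%).

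The places of the parents were examined next. The members were listed by name with earlier results of these data known. The list left out 10 pseudogenes called by DESeq2 with a parent on another chromosome, and 1 with a parent near Trpc1. The number of its parents on chromosome 9 therefore describes this choice and carries no test. Of the 5 parents, 4 lie on chromosome 9, the chromosome of Trpc1 (chr9:95705082-95750375): Cyb5r4 at chr9:87022014-87077774, Morf4l1 at chr9:90091665-90114774, Rpl29 at chr9:106429454-106431568 and Tma7 at chr9:109074568-109082587. They were 8.63, 5.59, 10.7 and 13.3 Mb from Trpc1. Cyb5r4 and Morf4l1 lie on one side of it, Rpl29 and Tma7 on the other. Their 6 copies lie on chromosomes 1, 4, 5 and 16. Pisd lies on chromosome 5 (chr5:32736301-32785646). Of the 864 tested pseudogenes with a sequence parent, 7.64% had one on chromosome 9, and 2.66% (23) had one within 15 Mb of Trpc1, a distance chosen after these positions were seen.

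Of these 23 pseudogenes, DESeq2 called 7 (30.4%), of which 6 were members, and 10 were higher without overlap and 0 lower. Of the 43 with a parent elsewhere on chromosome 9, 0 were called and 4 were higher without overlap, and of the 798 with a parent on another chromosome, 11 (1.38%) were called. Without WT replicate 1, DESeq2 called 13 of the 23 and 23 of the others with a parent. In the other fits with a sample left out it called 5 to 8 of the 23. Without the members, the 17 that remained near Trpc1 held 1 called pseudogene and 4 that were higher without overlap (23.5%). Among the 797 with a parent on another chromosome, 8.53% did not overlap, in either direction. All 4 near Trpc1 were copies of Rpl29 (Gm14036, Gm6344, which was the called one, Gm10709 and 4931440P22Rik). They belong to the family of the members Gm8210, Gm13841 and Gm15454, so their counts are not independent of those. Of the 23 pseudogenes, 16 were copies of the 4 parents named above. The other 7, copies of 6 further genes within the same distance, had 0 called and 0 without overlap, with log2 fold changes from −0.29 to 0.25. Every Trpc1-/- sample carries the targeted allele on chromosome 9, so the genotype at Trpc1 and that of its neighbourhood on the chromosome cannot be told apart by these groups.

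**Figure D4:**
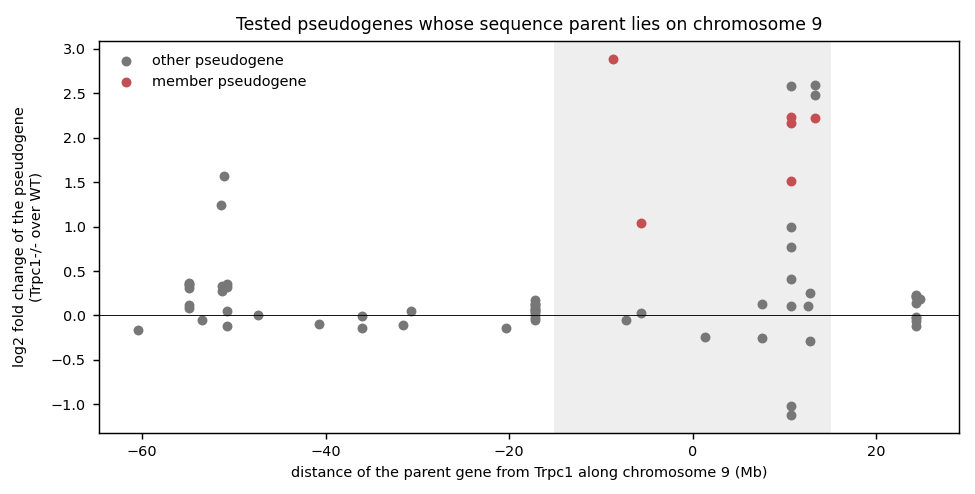
Log2 fold change (Trpc1-/- over WT) of the 66 tested pseudogenes whose parent lies on chromosome 9, against the distance of the parent from Trpc1 in Mb (red, members; grey, others; shaded, within 15 Mb). The values over 2 all lie in the shaded part, at the distances of Cyb5r4, Rpl29 and Tma7. The other pseudogenes there range from −1.12 (Gm12447) to 1.52 (Gm15454), and those of parents other than Cyb5r4, Morf4l1, Rpl29 and Tma7 from −0.29 to 0.25.

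Copies of the same parents that are not members were compared with those that are. Beside the 3 members, 7 copies of Rpl29 passed the filter on low counts. Gm14036, which differed from Rpl29 at 3 positions, was at 5.004, 1.20, 0.609 and 0.457 CPM in WT and at 10.9, 7.61 and 12.8 CPM in Trpc1-/- samples. The groups did not overlap (log2 fold change 2.59, SE 0.77), but it passed neither test (adjusted P = 0.408 in edgeR and 0.135 in DESeq2). Gm6344, also with 3 differences, was at 2.31, 2.99, 3.09 and 2.56 CPM in WT and at 5.86, 4.61 and 5.93 CPM in Trpc1-/- samples, and DESeq2 called it (log2 fold change 0.99, SE 0.16, adjusted P = 1.58e-05 in DESeq2 and 0.334 in edgeR). Gm17669 was at 1.32, 3.61, 4.05 and 3.63 CPM in WT and at 1.72, 1.86 and 1.13 CPM in Trpc1-/- samples, with WT replicate 1 among the latter. Its log2 fold change was −1.01 (SE 0.38), and its sequence was not compared base by base.

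The remaining 4 copies of Rpl29 were looked at after their values were seen. Gm10709, with 4 differences, was higher without overlap (log2 fold change 0.77, SE 0.22), as was 4931440P22Rik, with 23 (0.41, SE 0.21). Gm5561, with 8 differences (0.11, SE 0.27), and Gm12447, with 19 (−1.12, SE 0.47), overlapped. Of the 9 copies compared base by base, the 6 with at most 4 differences had log2 fold changes from 0.77 to 2.59, all without overlap, and the other 3 from −1.12 to 0.41. These 6 include the members Gm8210, Gm13841 and Gm15454, which were chosen for their change. The division at 4 differences was made after the values were seen, so it describes these copies and carries no test. T423C was present in all 9 copies and C300T in 7, the 6 near-identical ones and Gm5561, so the base of Rpl29 at position 423 was found in none of its tested copies that were compared. Counts on single rows of this family are uncertain, since most of their sequence is shared.

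**Figure D5:**
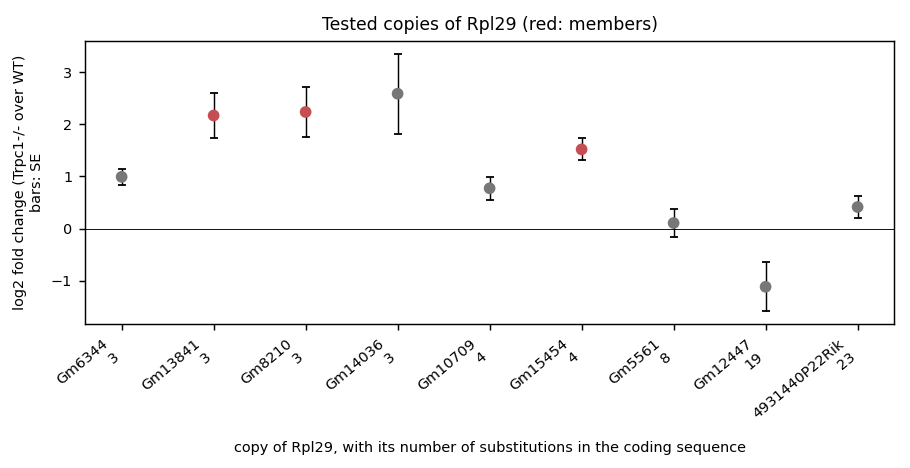
Log2 fold change (Trpc1-/- over WT, bars SE) of 9 tested copies of Rpl29, ordered by the number of substitutions from its coding sequence, given under each name (red, members). The 6 copies with 3 or 4 substitutions lie between 0.77 and 2.59 and the 3 with 8 or more between −1.12 and 0.41. The members were chosen for their change, and the order carries no test. Gm17669 (−1.01), which was not compared base by base, is not shown.

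For Tma7, the other tested copies were Gm15610 and Gm6916, both with 4 differences and both carrying A123G like Tma7-ps. Gm15610 had 44, 12, 3 and 0 counts in WT and 176, 79 and 146 counts in Trpc1-/- samples. Gm6916 had 29, 13, 1 and 4 counts in WT and 133, 46 and 144 counts in Trpc1-/- samples. In both, the highest WT sample was replicate 1, and it was the one that reached the Trpc1-/- range. Their log2 fold changes were 2.48 (SE 1.15) and 2.60 (SE 0.99), with adjusted P values of 0.511 and 0.469 in edgeR. For Morf4l1, Gm8663 had 44 differences from the parent and a log2 fold change of 0.02 (SE 0.27), at 4.25, 2.19, 2.12 and 2.31 CPM in WT and 2.83, 2.73 and 2.66 CPM in Trpc1-/- samples. Pisd-ps2, the other tested copy of Pisd, was lower without overlap, with 1.22, 1.19, 1.13 and 1.14 CPM in WT and 1.00, 0.849 and 0.857 CPM in Trpc1-/- samples, though it passed neither test (log2 fold change −0.37, SE 0.17, adjusted P = 0.508 in edgeR and 0.454 in DESeq2). The sequence match gave no other annotated copy of Cyb5r4.

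The genes that overlap a pseudogene were read beside it. Lpp, which encodes a LIM-domain protein of focal adhesions and holds Morf4l1-ps1 in an intron on the same strand, had a log2 fold change of −0.21 (SE 0.21, adjusted P = 0.705 in edgeR), opposite in sign to the pseudogene, and its highest sample was WT replicate 1 at 139 CPM against 75.9 to 97.0 CPM in the others. Fhl2, also a LIM-domain gene, which holds Gm8210 in an intron on the opposite strand, was at 11.4, 11.8, 12.3 and 16.3 CPM in WT and at 10.9, 9.51 and 10.3 CPM in Trpc1-/- samples (log2 fold change −0.34, SE 0.14, adjusted P = 0.482 in edgeR). Its Trpc1-/- samples were the lower ones, whereas those of Gm8210 were the higher.

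Genes that work with the parents were followed through lists taken as wholes. Of 20 partners of MRG15 in the NuA4 acetyltransferase and related complexes, all were tested, 0 passed edgeR's test, 0 had an unadjusted P under 0.05 and 0 were called by DESeq2, with a median log2 fold change of −0.0081. Of 18 genes of phosphatidylserine and phosphatidylethanolamine synthesis and of its mitochondrial lipid transfer, 16 were tested, with 0 at an unadjusted P under 0.05, 2 higher and 2 lower without overlap and a median of 0.09. Of the 85 ribosomal protein genes, 0 passed edgeR's test and 8 (9.41%) had an unadjusted P under 0.05, against 10.0% of all genes tested, and all 8 were higher (against 4.51% of all genes), led by Rpl39 (log2 fold change 0.40, SE 0.14), Rps21 (0.30, SE 0.13) and Rps27a (0.30, SE 0.12), with adjusted P values of 0.454, 0.499 and 0.490. DESeq2 called 0 of them. Over all 782 tested processed and transcribed processed pseudogenes, 70 were higher and 4 lower without overlap, 9.46% together. Of all genes tested, 7.15% were higher and 6.42% lower in this way, so a smaller share of these pseudogenes was lower. The median log2 fold change of these pseudogenes was 0.14, and DESeq2 called 15 of them (1.92%), near the 1.79% of all genes. The largest log2 fold changes at an unadjusted P under 0.05 were those of Gm11868, Gm6916 and Gm14036.

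The genes most alike in pattern were listed for each pseudogene by Pearson's r of log2 CPM over the 7 samples, a description given with no test. For Gm8210 these were Gm13841 (r = 0.999), Tma7-ps (0.994) and Gm14036 (0.993), all copies of chromosome 9 parents. For Gm13841 they were Gm8210, Snhg5 (0.994) and Kpna3 (0.993), and for Tma7-ps Gm8210, Agtr1a (0.993) and Gm13841 (0.992). Gm15454 was most like Tpt1 (0.994), Slc25a21 (0.991) and Kpna3 (0.991), and Morf4l1-ps1 most like Adi1 (0.994), Sertad2 (0.988) and Ammecr1 (0.981). Gm11868 was most like H2-Aa (0.992), H2-Eb1 (0.991) and Mindy2 (0.986), and Pisd-ps1 most like Zkscan17 (0.986), Fbln1 (0.983) and Ccdc85c (0.979).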

How the data were processed

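Per the labels, the authors aligned trimmed reads of 7 ribosomal-RNA-depleted stranded libraries to GRCm38 (Cutadapt 2.5, HISAT2 2.1.0, StringTie 2.0.3) and deposited estimated counts per gene, whole numbers that were not normalized. How StringTie split reads that match several loci is fixed in these values and bears directly on copies and parents. The members and lists were chosen with earlier results of these data known. A gene was tested if it exceeded 1 CPM in 2 samples or more (16429 of 55401). In R 4.3.3, TMM-scaled counts were tested in edgeR 4.0.16 by its quasi-likelihood method (genotype only, Benjamini-Hochberg adjustment over all tested genes, threshold 0.05), and DESeq2 1.42.0 was run with default settings. Pairs were refitted with their rows replaced by the summed counts. The sequence parent of each pseudogene was the best sense-strand blastn match among GENCODE M21 protein-coding transcripts covering at least 50% of it (E-value limit 1e-10). Identical stretches were sought among the 141767 annotated transcripts, not in a genome sequence. Named genes were the members, their sequence parents, overlapping genes, up to 3 further copies per parent by mean CPM, the 3 genes most alike in pattern, up to 3 genes per list, and Trpc1. Each replicate has a mouse number of its own in the labels, which do not give the mice of each pool. P values measure the spread between these samples. The fits were tested on simulated data. Alternatives were DESeq2, other scaling, no filter, a replicate block, only samples with the lower mouse numbers, each sample left out and, for the shares, levels per kb of exon. DESeq2 with samples left out and other distances from Trpc1 were added after seeing the data.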

Additional observations from a re-analysis of the deposited data

Results flagged for a closer look

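With 4 WT samples, a sample was picked out when its gap to the nearest other exceeded Dixon's 95% limit for the range of the group, which chance gives for about 1 in 20 groups. Of the 17 sets of WT values checked, 5 were picked out, all through WT replicate 1, so they are not independent of each other. They were the CPM of Tma7-ps (1.32), of Gm15454 (1.68) and of Rpl29 (28.1), and the shares of counts on Tma7-ps (5.95%) and on the 3 copies of Rpl29 (44.4%). Rpl29 was lower than in the other WT samples and the other 4 values were higher. The values of Gm11868, Morf4l1-ps1 and Pisd-ps1 in that library were not picked out.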

How the results depend on the processing

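The pseudogenes and the sums kept their log2 fold changes within 1 SD of log2 CPM between replicates under every alternative run (91 and 70 fits). That spread is wide for some copies, and without WT replicate 1 the values of Tma7-ps, Gm8210 and Gm13841 were 3.07, 2.86 and 2.71 against 2.23, 2.24 and 2.17. In these fits the sign of the sum of Rpl29 and its copies was unsettled, as given above. The number of genes called over the whole table was 0 in edgeR under other scaling, no filter, the lower mouse numbers and the replicate block, between 0 and 52 with a sample left out (52 without WT replicate 1), and 294 in DESeq2, which gave between 37 and 892 with a sample left out and 181 with the lower mouse numbers. Cyb5r4 lay between −1.06 and −0.79 by edgeR and between −1.06 and −0.79 by DESeq2 with a sample left out, at −0.89 by DESeq2 on all samples and at −0.64 with the lower mouse numbers, where it was no longer called. Rpl29 lay between −1.04 and −0.58 by edgeR and between −1.03 and −0.57 by DESeq2 with a sample left out, called by both without WT replicate 1 alone, and was at −0.33 by both with the lower mouse numbers. Tma7 lay between −0.018 and 0.25 by edgeR and between −0.014 and 0.26 by DESeq2 with a sample left out, negative without WT replicate 1, and was at 0.36 and 0.37 with the lower mouse numbers. Pisd was at 0.014 by edgeR and 0.017 by DESeq2 with the lower mouse numbers, and between −0.27 and −0.10 by DESeq2 with a sample left out, called without WT replicate 1. Per kb of exon, the rise in the share on the pseudogene was 49.98 points for Gm11868, 19.99 for Tma7-ps and 14.0 for Morf4l1-ps1, larger than on counts because the copies are shorter than their parents. With stretches of 50 bases the share found in the parent was 41.5% for Gm11868, 53.4% for Tma7-ps, 93.2% for Morf4l1-ps1, 65.4% for Gm8210 and Gm13841, 62.9% for Gm15454 and 11.9% for Pisd-ps1. DESeq2 called 0 pseudogenes with a parent within 5 Mb of Trpc1, 2 within 10 Mb and 7 within 15, 20 or 25 Mb, and within 15 Mb between 5 and 13 with a sample left out (13 without WT replicate 1). Causes were not tested.

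Replicate numbers are shared by samples with different mouse numbers. In the check of pairing, same-numbered samples had correlations of their deviations between −0.348 and −0.0439, and 0 of 3 correlated best with their own number, so they were not treated as pairs. With the replicate block on replicates 1 to 3, edgeR called 0 genes, as without it, Cyb5r4 was at −0.76, Rpl29 at −0.45, Tma7 at 0.23, Morf4l1 at −0.17 and Pisd at −0.08, and no call changed. Counts on Tma7-ps were low (21 to 63 in WT), which limits its precision, and 1 library of 4, WT replicate 1, sets much of the spread in WT.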
